A study of Mus musculus with 2 samples.

Results

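The respiratory chain genes described here are 34 of the 32285 features in each count matrix, chosen by symbol: the 13 protein genes of the mitochondrial genome (the mt- genes) and 21 nuclear genes for subunits of the same complexes and for cytochrome c. They were measured by droplet single-cell RNA sequencing of mouse liver tumours (hepatocellular carcinoma, HCC, in the series title) in a control library titled shCtrl, whose genotype is given as WT, and a library titled and genotyped shSrsf10, 1 of each, where a short hairpin RNA targets the splicing factor Srsf10. Tissue is labelled Tumor for both. The labels used here give no strain, age, tumour model, hairpin delivery or number of animals behind a library. The labels disagree on the preparation. The design text gives enzymatic digestion, flow sorting with no stated gate and a 5′ kit, while the sample protocol gives a low-speed spin that sediments hepatocytes and the version 3 chemistry for 3′ ends. With 1 library per group no difference was set against replicates, no test between the groups was made, and intervals (95%, exact) cover counting error only.

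Oxidative phosphorylation runs on 5 complexes in the inner mitochondrial membrane. Complexes I and II pass electrons from NADH and succinate to ubiquinone, complex III passes them to cytochrome c, complex IV hands them to oxygen, and complex V uses the resulting proton gradient to make ATP. All of these but complex II and cytochrome c are mosaics: a few hydrophobic core subunits are transcribed and translated inside the mitochondrion, and the remainder are nuclear genes whose proteins are imported. The compact mitochondrial genome is transcribed as long precursors that are cut into single messages at the tRNAs between genes.

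Some of its genes overlap, which limits what a read can be assigned to. The stretches below (mouse GRCm38, + strand, from GENCODE transcripts) show the shared bases in capitals, because 2 of the genes with the fewest UMIs (unique molecular identifiers, counted molecules), mt-Atp8 and mt-Nd4l, each sit on 1 message with the longer gene downstream.
mt-Atp8 into mt-Atp6, chrM:7882-8014: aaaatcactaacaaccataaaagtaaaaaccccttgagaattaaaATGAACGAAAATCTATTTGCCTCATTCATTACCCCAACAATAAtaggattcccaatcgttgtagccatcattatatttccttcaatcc
mt-Nd4l into mt-Nd4, chrM:10122-10218: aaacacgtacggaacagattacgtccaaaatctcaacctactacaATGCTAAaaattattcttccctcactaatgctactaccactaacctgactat
The first pair shares 43 bases, from 7927 to 7969, and the second 7 bases, from 10167 to 10173. mt-Nd6, on the opposite strand, overlaps the end of mt-Nd5 by 14 bases, and mt-Co3 begins on the last base of mt-Atp6. Whether the authors counted by strand, and how they split reads over shared bases, is not given in the sources used here. Nuclear copies of mitochondrial sequence and processed pseudogenes of Cycs and other subunits can also take reads from these genes.

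Barcodes were placed in 4 classes by rule: tumour (at least 5 UMIs of Krt8 and Krt18 with Ptprc at 0), T (at least 2 UMIs of Cd3d, Cd3e and Cd3g), neutrophil (S100a8 and S100a9 at 1% or more of UMIs) and macrophage (at least 3 UMIs of C1qa, C1qb and C1qc). Barcodes with more than 20% mt- UMIs were left out. This limit is set on the mitochondrial genes themselves, so they are also given without it below. It left 6950 shCtrl and 3953 shSrsf10 tumour barcodes, 385 and 2107 T barcodes, 157 and 300 neutrophil barcodes, and 494 and 179 macrophage barcodes. The files held 143327661 and 136419902 UMIs, and 67 barcode sequences occurred in both. Median depth per kept barcode, shCtrl then shSrsf10, was 17309.5 and 26474 UMIs in tumour, 2260 and 2687 in T, 701 and 804.5 in neutrophil and 2627 and 4097 in macrophage barcodes.

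The markers of each class were detected in it, but in T and macrophage barcodes the tumour epithelial markers summed higher than the class's own. All 10 tumour epithelial markers were detected in every class. Their summed level (CPM, UMIs scaled to a class total of 1000000) was 20672 and 15245 in tumour, 16061 and 11672 in macrophage, 9108 and 6634 in T and 6193 and 3001 in neutrophil barcodes, shCtrl first. Apoe alone gave 8417 and 4644 CPM of the macrophage sum and stood at 7445 and 4573 CPM in tumour barcodes. The macrophage sum alone is therefore not a measure of tumour RNA in that class. Other tumour markers were high there too. Krt8 stood at 865 and 838 CPM in macrophage and 697 and 797 CPM in T barcodes, against 1563 and 1703 CPM in tumour barcodes. Krt18 stood at 1123 and 1363, 937 and 1315, and 2122 and 2901 CPM in the same order. The 9 T cell markers summed to 3724 and 4441 CPM in T barcodes and to 6.03 and 24.3 CPM in tumour barcodes. The 7 macrophage markers summed to 6277 and 5307 CPM in macrophage barcodes and the 8 neutrophil markers to 141840 and 109599 CPM in neutrophil barcodes. Markers of other cells also differed between the libraries within the immune classes. In macrophage barcodes the T cell markers summed to 145 and 661 CPM, the neutrophil markers to 122 and 551 CPM and the 4 fibroblast markers to 13.7 and 99.8 CPM, and in neutrophil barcodes the T cell markers summed to 153 and 403 CPM. The part of such RNA from other cells in the results below was not tested. Srsf10 was lower in the library labelled shSrsf10 in tumour barcodes, at 19.8 against 45.7 CPM (log2 ratio of shSrsf10 over shCtrl -1.21, -1.27 to -1.14), and in T barcodes at 40.0 against 62.3 CPM (-0.64, -0.91 to -0.35) and macrophage barcodes at 26.7 against 46.1 CPM (-0.79, -1.31 to -0.28). In neutrophil barcodes it rested on 9 and 8 UMIs.

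Mitochondrially encoded RNA was lower in the shSrsf10 library in all 4 classes, while the nuclear genes of the same complexes were near equal in 3 of them. The 13 mt- genes together stood at 2050 CPM in shSrsf10 against 4156 CPM in shCtrl tumour barcodes, 2.03-fold lower (log2 ratio -1.02, -1.03 to -1.01). In T barcodes they stood at 2267 against 4660 CPM, 2.06-fold lower (-1.04, -1.07 to -1.01), in neutrophil barcodes at 2525 against 7327 CPM, 2.90-fold lower (-1.54, -1.66 to -1.41), and in macrophage barcodes at 1245 against 5323 CPM, 4.28-fold lower (-2.10, -2.16 to -2.03). The 21 nuclear genes together stood at 12567 against 12459 CPM in tumour (log2 ratio 0.01, 0.01 to 0.02), 11985 against 12074 CPM in T (-0.01, -0.03 to 0.01), 12957 against 12392 CPM in macrophage (0.06, 0.04 to 0.09) and 5828 against 6873 CPM in neutrophil barcodes (-0.24, -0.34 to -0.13).

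The ratio between the genomes moved accordingly. For each UMI of the 21 nuclear genes there were 0.334 mt- UMIs in shCtrl and 0.163 in shSrsf10 tumour barcodes. The same ratio was 0.386 and 0.189 in T barcodes, 0.430 and 0.0961 in macrophage barcodes, and 1.07 and 0.433 in neutrophil barcodes. Neutrophils, which carry few mitochondria and live largely on glycolysis, were the 1 class where the nuclear genes stood apart from the other classes: 15 of the 21 were at least 1.5-fold below T barcodes in both libraries, with a median log2 ratio of -0.87 in shCtrl and -1.21 in shSrsf10. Over the 4396 genes measured in both classes, 38.3% were that much lower and 13.6% that much higher, and the medians were -0.51 and -0.77, so much of this difference was shared by other genes. None of the 9 measured mt- genes was that much lower or higher in neutrophil than in T barcodes in both libraries. Their median log2 ratio was 0.64 in shCtrl, above T barcodes, and 0.02 in shSrsf10. Tumour against T barcodes gave 0 of 21 nuclear and 0 of 12 mt- genes past 1.5-fold in both libraries, where 15.5% of all genes were higher and 23.1% lower. Macrophage against T barcodes gave 0 of 21 and 0 of 11, where 10.6% were higher and 10.2% lower. For the mt- genes this did not mean like levels. Their median log2 ratio of macrophage over T barcodes was 0.18 in shCtrl and -0.89 in shSrsf10.

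Counted gene by gene, every mt- gene with at least 50 UMIs in a class was at least 1.5-fold lower in shSrsf10. This held for 12 of 12 measured genes in tumour, 11 of 11 in T, 8 of 8 in neutrophil and 9 of 9 in macrophage barcodes, and each of those intervals lay below 0. The minimum counts both libraries together. mt-Nd2 in neutrophil barcodes (61 and 19 UMIs, shCtrl first) and mt-Nd5 in macrophage barcodes (59 and 10) met it only through shCtrl. For them the filter itself favoured a lower ratio, so they add no support to these counts. Among all genes measured in the same way, 11.8% were that much lower and 7.40% that much higher in tumour, 17.4% and 8.84% in T, 16.3% and 30.8% in neutrophil and 12.7% and 8.45% in macrophage barcodes. The median log2 ratio of the mt- genes was -1.05, -1.07, -1.56 and -2.13 in tumour, T, neutrophil and macrophage barcodes, against -0.07, -0.07, 0.21 and 0.001 over all genes.

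**Figure D1:**
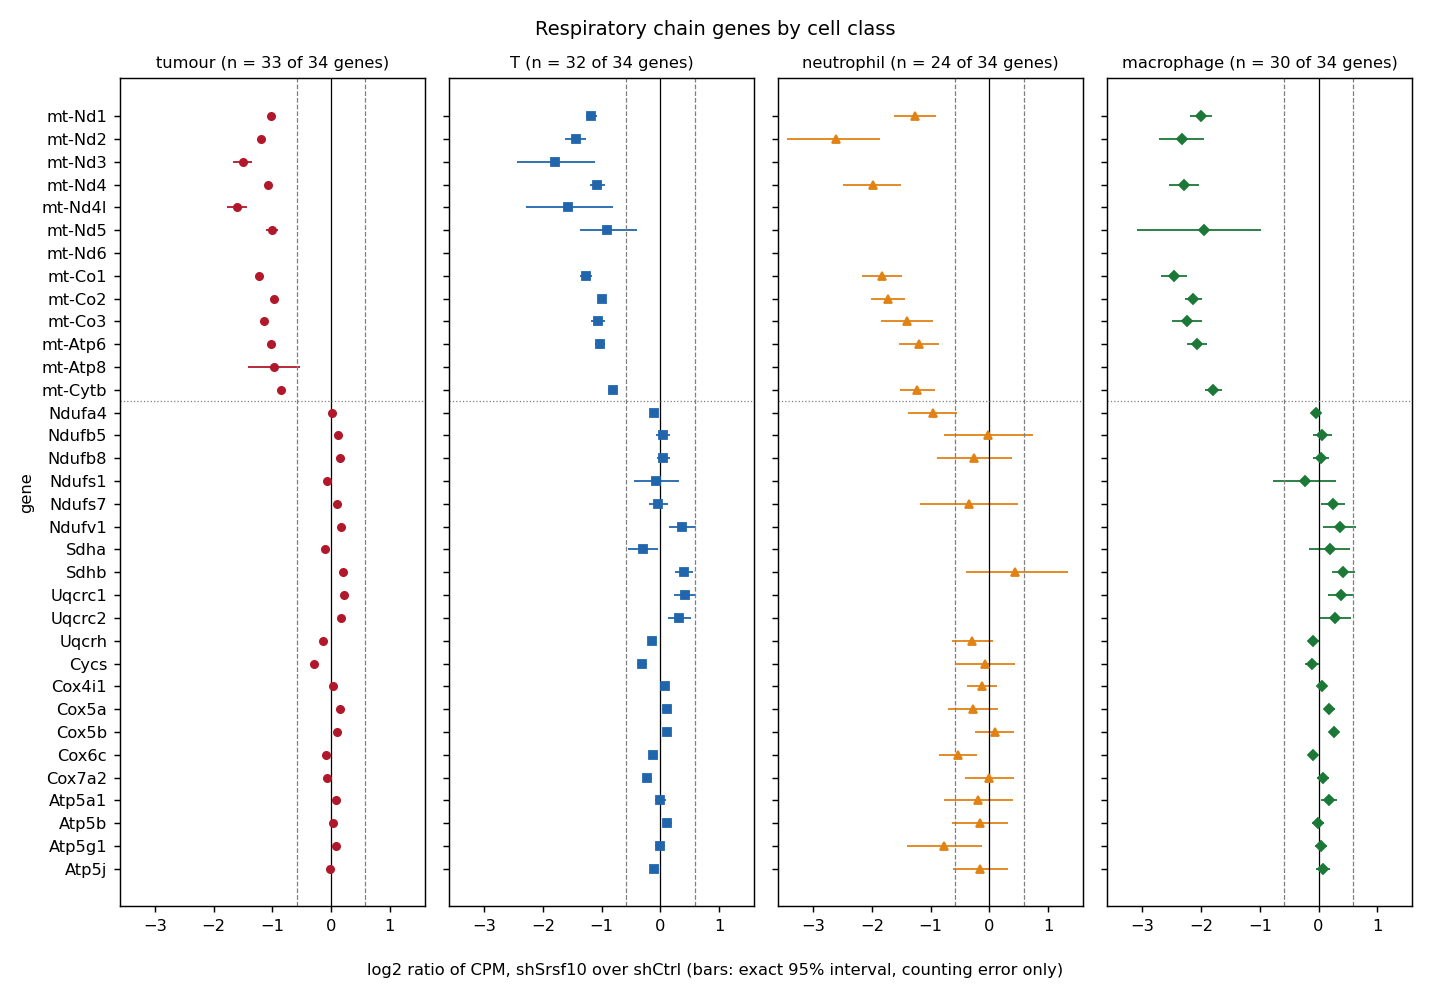
Log2 ratio of CPM, shSrsf10 over shCtrl (horizontal axis), of each gene (rows; mt-encoded above the dotted line, nuclear below) in each class, for genes with at least 50 UMIs. Points are the ratio of summed UMIs, bars the exact 95% interval for counting error, and dashed lines 1.5-fold. Every mt-encoded point is left of the lower dashed line, while the nuclear points gather around 0, apart from Ndufa4 and Atp5g1 in neutrophils.

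The complex I genes of the mitochondrial genome encode the membrane arm that pumps protons. mt-Nd1, at the joint between the arms, stood at 561 CPM in shCtrl and 277 CPM in shSrsf10 tumour barcodes (log2 ratio -1.02, -1.03 to -0.997). mt-Nd2, a pump subunit in the membrane arm, stood at 162 and 70.6 CPM (-1.20, -1.23 to -1.16). mt-Nd4, another pump subunit, stood at 302 and 143 CPM (-1.08, -1.10 to -1.05). Among mt- genes with at least 50 UMIs, the largest differences in tumour barcodes were in the 2 short and thinly counted genes mt-Nd4l (9.30 and 3.07 CPM, -1.60, -1.77 to -1.43) and mt-Nd3 (9.96 and 3.51 CPM, -1.50, -1.67 to -1.34). The mt-Nd4l interval lies below that of mt-Nd4, whose message it shares and whose first bases it overlaps. mt-Nd5, the pump subunit farthest along the arm, stood at 18.1 and 8.96 CPM (-1.01, -1.12 to -0.91). mt-Nd6, the 1 gene on the other strand, had 33 and 9 UMIs in tumour barcodes and was below the minimum in every class.

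In the immune classes mt-Nd1, mt-Nd2 and mt-Nd4, the complex I genes measured in all 3, were lower too. Under 50 UMIs were mt-Nd3, mt-Nd4l and mt-Nd5 in neutrophil barcodes, where mt-Nd4l had 5 UMIs in each library, and mt-Nd3 and mt-Nd4l in macrophage barcodes. mt-Nd1 stood at 544 and 241 CPM in T, 845 and 352 CPM in neutrophil and 618 and 154 CPM in macrophage barcodes, shCtrl first (log2 ratios -1.18, -1.26 and -2.00). mt-Nd2 had the largest difference of any mt- gene measured in neutrophils, at 346 and 56.2 CPM (-2.62, -3.45 to -1.86), on 61 and 19 UMIs, so it met the minimum only through shCtrl. It stood at 175 and 64.5 CPM in T (-1.44) and 196 and 39.2 CPM in macrophage barcodes (-2.32). mt-Nd4 stood at 348 and 165 CPM in T (-1.07), 635 and 160 CPM in neutrophil (-1.99) and 435 and 89.1 CPM in macrophage barcodes (-2.29). For each of these 3 genes shCtrl was more than 2-fold above shSrsf10 in every class.

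Complex III has 1 mitochondrially encoded subunit, cytochrome b (mt-Cytb, ENSMUSG00000064370, chromosome M from 14145 to 15288), which binds ubiquinol. It stood at 792 CPM in shCtrl and 439 CPM in shSrsf10 tumour barcodes (-0.85, -0.87 to -0.84), 899 and 512 CPM in T (-0.81, -0.89 to -0.74), 1219 and 521 CPM in neutrophil (-1.23, -1.52 to -0.93) and 981 and 283 CPM in macrophage barcodes (-1.79, -1.94 to -1.65). This was the smallest difference of the 8 mt- genes measured in every class in tumour, T and macrophage barcodes, and the next to smallest in neutrophil barcodes, after mt-Atp6.

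The complex IV genes encode the catalytic core of cytochrome c oxidase. mt-Co1, which holds the site of oxygen reduction, stood at 471 CPM in shCtrl and 202 CPM in shSrsf10 tumour barcodes (-1.22, -1.24 to -1.20), and its log2 ratio was -1.26 in T, -1.82 in neutrophil and -2.46 in macrophage barcodes. mt-Co2, which takes electrons from cytochrome c and was the most counted mt- gene, stood at 873 and 445 CPM in tumour (-0.97, -0.99 to -0.96), with -0.99, -1.73 and -2.13 in T, neutrophil and macrophage barcodes. mt-Co3, a structural core subunit, stood at 316 and 143 CPM in tumour (-1.14, -1.17 to -1.12), with -1.07, -1.40 and -2.23 in the other classes. mt-Co1 had the largest difference of the 8 genes in tumour and macrophage barcodes and mt-Nd2 in T and neutrophil barcodes.

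Of the complex V genes, mt-Atp6, part of the proton channel, stood at 641 CPM in shCtrl and 314 CPM in shSrsf10 tumour barcodes (-1.03, -1.05 to -1.01), and its log2 ratio was -1.03 in T, -1.20 in neutrophil and -2.07 in macrophage barcodes. mt-Atp8, a small membrane subunit on the same message, had only 141 and 63 UMIs in tumour barcodes, a log2 ratio of -0.97 (-1.42 to -0.53), which does not differ from mt-Atp6 beyond counting error. It was below the minimum in the other classes, with 3 and 6 UMIs in T and 3 and 0 in macrophage barcodes.

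The share of each gene within the mt- UMIs shows how the measured genes differed among themselves. mt-Cytb made up 19.1% of mt- UMIs in shCtrl and 21.4% in shSrsf10 tumour barcodes, 19.3% and 22.6% in T, 16.6% and 20.6% in neutrophil and 18.4% and 22.8% in macrophage barcodes. The log2 ratio of its share was 0.17 (0.15 to 0.18), 0.23 (0.15 to 0.30), 0.31 (0.01 to 0.60) and 0.30 (0.16 to 0.45), so the share was higher beyond counting error in each class. mt-Co1 went the other way, from 11.3% to 9.86% in tumour (-0.20, -0.22 to -0.18), 11.6% to 9.91% in T (-0.22, -0.32 to -0.12) and 11.2% to 8.68% in macrophage barcodes (-0.36, -0.59 to -0.14), with an interval that held 0 in neutrophils. Of the 13 genes mt-Cytb is the last along the genome in the + direction, but the shares do not follow the gene order: mt-Nd1, the first gene, kept 13.5% in both libraries in tumour barcodes, and mt-Nd3 and mt-Nd4l, in the middle, had the largest losses of share there among genes with at least 50 UMIs.

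**Figure D2:**
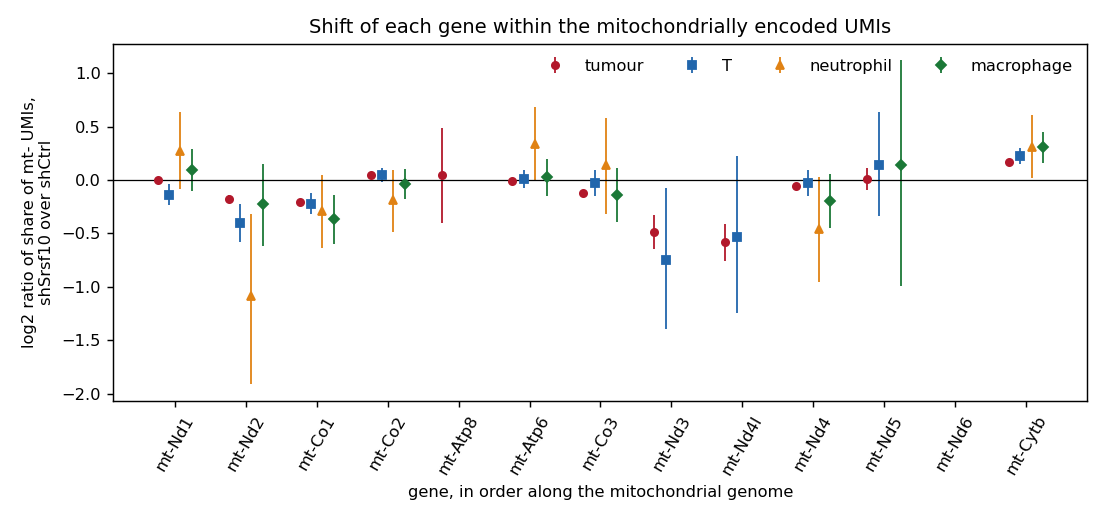
Log2 ratio of each gene's share of mt- UMIs, shSrsf10 over shCtrl (vertical axis), with the 13 genes in their order along the mitochondrial genome (horizontal axis, rank only) and 1 symbol per cell class; bars are exact 95% intervals for counting error, and genes under 50 UMIs in a class are left out. mt-Cytb, at the right, lies above 0 in all 4 classes (0.17 to 0.31), and mt-Co1 lies below 0 in all 4, with an interval reaching 0 in neutrophils.

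In tumour, T and macrophage barcodes the 21 nuclear genes did not share the difference. In tumour barcodes 0 of 21 were 1.5-fold higher or lower, the median log2 ratio was 0.08 and the values ran from -0.30 (Cycs) to 0.22 (Uqcrc1). In T barcodes it was 0 of 21 with a median of 0.003, and in macrophage barcodes 0 of 21 with a median of 0.08. With counts this deep even small differences exceeded counting error in tumour barcodes, where 14 of the 21 intervals lay above 0 and 6 below. In neutrophil barcodes 16 of the 21 were measured, and 2 were at least 1.5-fold lower and 0 higher. Of all genes measured there 16.3% were that much lower and 30.8% higher, so 2 lower genes do not stand out from that share. The median of the 16 was -0.18, set against 0.21 over all genes. All 21 together had a log2 ratio of -0.24 (-0.34 to -0.13). In neutrophil barcodes the nuclear genes were thus lower as a sum, by less than the mt- genes, and their median took both signs under the alternatives below.

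Among the nuclear complex I genes, Ndufv1 and Ndufs1 belong to the arm that takes in electrons. Ndufv1, which binds NADH, stood at 124 CPM in shCtrl and 139 CPM in shSrsf10 tumour barcodes (0.16), 84.6 and 110 CPM in T (0.38, 0.15 to 0.61) and 92.9 and 119 CPM in macrophage barcodes (0.36, 0.08 to 0.64). Ndufs1, the largest iron-sulfur subunit, stood at 31.6 and 30.2 CPM in tumour (-0.06, -0.13 to 0.0009) with intervals that held 0 in each class. Ndufs7, next to the quinone site, and the accessory subunits Ndufb5 and Ndufb8 of the membrane arm had log2 ratios of 0.09, 0.12 and 0.14 in tumour, and between -0.03 and 0.25 in T and macrophage barcodes. The 5 genes together stood at 978 and 1066 CPM in tumour (0.12, 0.11 to 0.14), beside -1.07 for the 7 mt- genes of the same complex.

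Complex II, with no mitochondrially encoded subunit, split between its 2 subunits here. Sdhb, the iron-sulfur subunit, stood at 133 CPM in shCtrl and 154 CPM in shSrsf10 tumour barcodes (0.21, 0.18 to 0.24), 179 and 237 CPM in T (0.40, 0.25 to 0.56) and 182 and 244 CPM in macrophage barcodes (0.42, 0.23 to 0.62). Sdha, the flavoprotein subunit, stood at 54.4 and 50.6 CPM in tumour (-0.10, -0.15 to -0.05), 71.3 and 57.9 CPM in T (-0.30, -0.55 to -0.04) and 62.9 and 71.9 CPM in macrophage barcodes (0.19, -0.16 to 0.54). Sdhb was thus above 0 beyond counting error in these 3 classes and Sdha below 0 in 2 of them.

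In complex III the core proteins Uqcrc1 and Uqcrc2 and the hinge protein Uqcrh, which helps dock cytochrome c1 with cytochrome c, differed in sign. Uqcrc1 stood at 139 and 162 CPM in tumour (0.22, 0.19 to 0.25), with 0.41 in T and 0.38 in macrophage barcodes, and Uqcrc2 at 113 and 127 CPM in tumour (0.17, 0.14 to 0.20), with 0.32 and 0.28. Uqcrh stood at 1077 and 981 CPM in tumour (-0.14, -0.15 to -0.12), with -0.14 in T and -0.09 in macrophage barcodes. Cycs, the soluble electron carrier cytochrome c, which also triggers apoptosis when released, had the lowest log2 ratio of the nuclear genes in tumour, at 489 and 397 CPM (-0.30, -0.32 to -0.28), and in T barcodes, at 550 and 443 CPM (-0.31, -0.40 to -0.22). In macrophage barcodes it stood at 503 and 467 CPM (-0.11, -0.24 to 0.02).

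The nuclear subunits of complex IV surround and regulate its core. Cox4i1, which binds ATP and is needed for assembly, stood at 1856 CPM in shCtrl and 1903 CPM in shSrsf10 tumour barcodes (0.04). Cox5a and Cox5b had log2 ratios of 0.15 and 0.09 in tumour, 0.11 and 0.11 in T and 0.18 and 0.27 in macrophage barcodes, each interval above 0. The small subunits Cox6c and Cox7a2 had -0.09 and -0.07 in tumour and -0.13 and -0.22 in T barcodes, each interval below 0. Ndufa4, named for complex I but counted with complex IV today, stood at 1208 and 1221 CPM in tumour (0.02) and at 567 and 290 CPM in neutrophil barcodes, on 100 and 98 UMIs (-0.97, -1.38 to -0.55), 1 of the 2 nuclear genes past 1.5-fold there.

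The other was Atp5g1, which encodes the rotating c-ring subunit of complex V, at 233 and 136 CPM in neutrophil barcodes on 41 and 46 UMIs (-0.77, -1.41 to -0.13). In tumour barcodes Atp5g1 stood at 701 and 739 CPM (0.08). The catalytic subunits Atp5a1 and Atp5b stood at 494 and 522 CPM (0.08) and 820 and 840 CPM (0.03) there, and Atp5j, in the peripheral stalk, at 506 and 498 CPM (-0.02). The 4 genes together had a log2 ratio of 0.04 in tumour, 0.01 in T, 0.06 in macrophage and -0.27 (-0.53 to -0.01) in neutrophil barcodes, beside -1.03, -1.03, -2.07 and -1.20 for their mt- partners.

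Respiratory chain genes of the nucleus are classically bound by NRF1, by ETS factors such as GABPA and by YY1. RefSeq promoter windows on GRCm38.p6 (250 bases before to 50 after the start) were found for 16 of the 21 nuclear genes and searched on both strands for CGCATGCG (NRF1, its own reverse complement), CCGGAAG (ETS) and AAGATGGCG (YY1), of which the last 2 can share the letters AAG. The NRF1 letters were in 3 of the 16 (Uqcrc1, Cycs, Atp5j), 18.8%, against 2.07% of all 27025 gene symbols with a window. The ETS letters were in 3 (Sdhb, Uqcrh, Atp5j), 18.8% against 9.93%, and the YY1 letters in 2 (Ndufs7, Atp5j), 12.5% against 1.64%. The promoters of the lowest and the highest nuclear gene in tumour barcodes both hold the NRF1 letters, shown in capitals.
Cycs, chr6:50566520-50566819, − strand: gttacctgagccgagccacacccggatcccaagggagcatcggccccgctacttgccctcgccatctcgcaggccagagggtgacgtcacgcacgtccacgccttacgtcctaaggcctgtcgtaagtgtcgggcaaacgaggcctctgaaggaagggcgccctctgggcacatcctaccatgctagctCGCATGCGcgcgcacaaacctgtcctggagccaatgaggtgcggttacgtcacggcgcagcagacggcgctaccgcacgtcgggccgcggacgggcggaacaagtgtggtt
Uqcrc1, chr9:108936398-108936697, + strand: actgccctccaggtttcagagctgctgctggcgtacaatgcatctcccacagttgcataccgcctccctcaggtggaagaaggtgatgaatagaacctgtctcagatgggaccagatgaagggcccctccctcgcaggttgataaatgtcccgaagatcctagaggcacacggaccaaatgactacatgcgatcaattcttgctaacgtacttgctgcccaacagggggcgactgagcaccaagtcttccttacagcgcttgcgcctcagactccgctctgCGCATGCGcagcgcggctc
A match is a description of these letters and says nothing about binding in these cells.

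The remaining subunits were within 1.5-fold in tumour and T barcodes, as the 21 were. In tumour barcodes 0 of 30 further complex I genes, 0 of 2 of complex II, 0 of 6 of complex III, 0 of 6 of complex IV and 0 of 14 of complex V were 1.5-fold higher or lower. In T barcodes the counts were 0 as well. In macrophage barcodes 1 was past it, Sdhd, a membrane anchor of complex II (78.9 and 130 CPM, 0.72), and in neutrophil barcodes 5 of 22 complex I, 1 of 4 complex III, 1 of 6 complex IV and 6 of 14 complex V genes were that much lower and 1 complex V gene that much higher, where 16.3% of all genes were lower and 30.8% higher. The 5 widest in tumour barcodes were Ndufa12 (0.32) and Ndufa10 (0.32) in complex I, Atp5md (-0.31), a small subunit of complex V, Cyc1, cytochrome c1 (0.30), and Sdhc (0.29), a membrane anchor of complex II. A tissue isoform stood apart. Cox7a1, the heart and muscle form of the subunit whose liver form is Cox7a2, stood at 30.9 CPM in shCtrl and 10.4 CPM in shSrsf10 tumour barcodes (-1.58, -1.67 to -1.49), at 15.2 and 6.02 CPM in T (-1.34, -1.94 to -0.70) and at 25.8 and 10.1 CPM in macrophage barcodes (-1.35, -2.21 to -0.57). The macrophage value rested on 66 and 17 UMIs. Cox7a1 met the minimum there only through shCtrl, so that value adds no support. Cox4i2, an isoform of Cox4i1 that was picked out after its values were seen, was rare in tumour barcodes (32 and 59 UMIs) and higher in shSrsf10 macrophage barcodes, at 50.5 against 24.2 CPM (1.06, 0.57 to 1.56).

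Genes that express, build and serve the mitochondrion were mostly within 1.5-fold. For the machinery of mitochondrial DNA replication, transcription and RNA stability, it was 15 of 15 in tumour barcodes, with a median log2 ratio of -0.005, while 2 were higher and 1 lower in T barcodes. Within this list Polg, the mitochondrial DNA polymerase, stood at 11.2 and 8.14 CPM (-0.46, -0.58 to -0.34), Lrpprc, which stabilises mt- messages, at 38.3 and 30.4 CPM (-0.33, -0.40 to -0.27), Tefm, an elongation factor, on 1086 and 1256 UMIs (0.40) and Tfb1m, which methylates the small ribosomal RNA, at 1.99 and 2.76 CPM (0.47). Of 34 assembly factors 1 was past 1.5-fold in tumour barcodes, Cox18, which inserts mt-Co2 into the membrane, at 4.90 and 7.52 CPM (0.62, 0.47 to 0.77). In T barcodes 1 of 33 was higher and 1 lower (Ttc19, which acts in complex III assembly, -1.12), and in macrophage barcodes 3 of 24 were higher. Of 78 genes of the mitochondrial ribosome, which translates the 13 messages, 1 was past it in tumour barcodes, Mrps30, at 31.0 and 13.4 CPM in tumour (-1.21, -1.30 to -1.13), 26.6 and 14.1 CPM in T (-0.92) and 31.6 and 13.7 CPM in macrophage barcodes (-1.21). The median of that list was 0.14 in tumour barcodes. Of the same list 3 of 78 were higher and 1 lower in T, 2 of 77 higher and 1 lower in macrophage, and 1 of 13 higher and 3 lower in neutrophil barcodes. The 1 lower in macrophage barcodes was Mrps30, on 81 and 23 UMIs. Its shSrsf10 count alone was under the minimum, so it adds no support there.

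Of 6 regulators of mitochondrial biogenesis, 1 was past 1.5-fold in tumour barcodes, where 11.8% of all genes were lower and 7.40% higher. Ppargc1a, the coactivator PGC-1α that drives mitochondrial gene programmes in liver and muscle, stood at 3.89 CPM in shCtrl and 1.30 CPM in shSrsf10, on 528 and 154 UMIs (-1.58, -1.85 to -1.32). Nrf1 (-0.29), Gabpa (-0.31) and Pprc1 (-0.27), the transcription factors and a related coactivator, were lower by less than 1.5-fold in tumour barcodes, each interval below 0. In T barcodes 1 of 4 measured regulators was at least 1.5-fold lower, Pprc1 (-0.64), where 17.4% of all genes were. In macrophage barcodes it was 2 of 3, among them Pprc1 (-1.20, on 42 and 12 UMIs), where 12.7% of all genes were. Pprc1 met the minimum there only through its higher shCtrl count, so it adds no support to that count of 2. None of the 13 citric acid cycle genes (median 0.13) or the 17 protein import genes (median 0.17) was past 1.5-fold in tumour or T barcodes.

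Across single barcodes the difference was a shift of the whole distribution. The median mt- share of a barcode's UMIs was 0.265% in shCtrl and 0.124% in shSrsf10 tumour barcodes, 0.322% and 0.119% in T, 0.399% and 0% in neutrophil and 0.317% and 0.0693% in macrophage barcodes. Tumour barcodes under 0.1% made up 21.1% in shCtrl and 43.2% in shSrsf10, and those of 2% or more 6.33% and 3.52%. With each barcode thinned to 1000 UMIs, the share holding at least 1 mt- UMI was 81.3% (80.4 to 82.2) among shCtrl tumour barcodes against 64.8% (63.3 to 66.3) among shSrsf10 ones, and was 80.5% and 63.2% of T, 82.4% and 56.5% of macrophage and 81.8% and 33.3% of neutrophil barcodes, the last over only 33 and 75 barcodes deep enough. Thinning left out 34 and 25 tumour, 41 and 79 T, 79 and 25 macrophage and 124 and 225 neutrophil barcodes. The unthinned shares were 99.5% and 98.3% in tumour, 92.7% and 85.6% in T, 94.7% and 74.9% in macrophage and 86.0% and 39.7% in neutrophil barcodes.

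**Figure D3:**
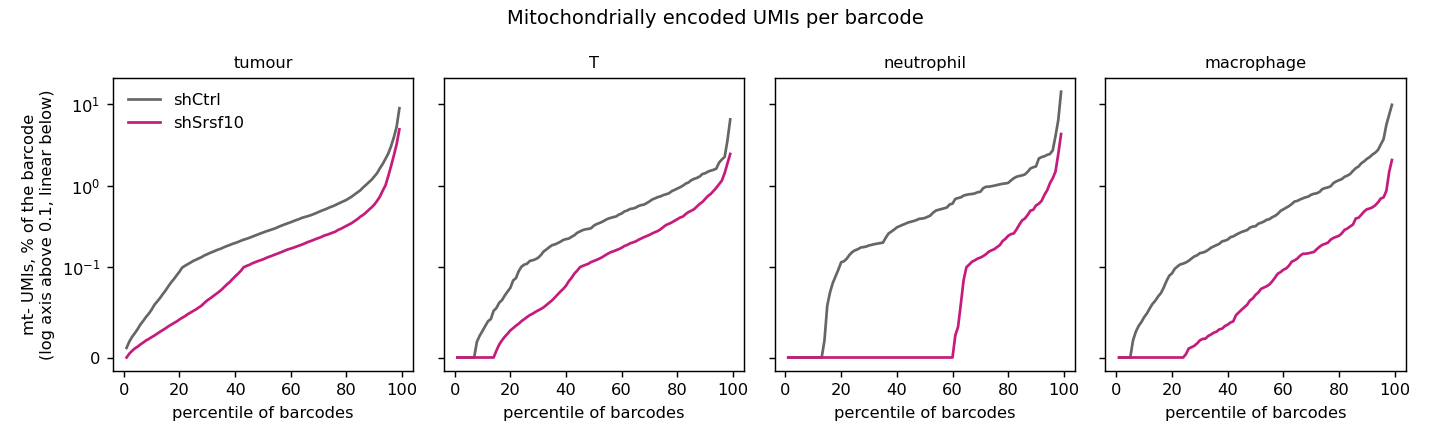
Share of mt- UMIs (vertical axis, in % of the barcode's UMIs, logarithmic above 0.1 and linear below) at each percentile of barcodes (horizontal axis) for both libraries in each class. The shSrsf10 line runs below the shCtrl line over the plotted range wherever they are not both at 0, with medians of 0.124% against 0.265% in tumour barcodes.

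In tumour barcodes the nuclear genes were not lower where mt- RNA was low. In shCtrl tumour barcodes under 0.1% mt- UMIs, the 21 genes stood at 13785 CPM of the UMIs that were not mt-, against 12136 at 0.1% to 0.5%, 11745 at 0.5% to 2% and 11806 at 2% to 20%. In shSrsf10 the same ranges gave 13356, 11755, 11985 and 12132. Within a range the tumour barcodes of both libraries were close, while they were spread over the ranges in different proportions. This was not so in every class: neutrophil barcodes of 0.5% to 2% stood at 7271 in shCtrl and 4227 in shSrsf10, T barcodes of 2% to 20% at 9044 and 12273 and macrophage barcodes of 2% to 20% at 11094 and 17477, on 56 and 27, 18 and 36, and 54 and 3 barcodes. In neutrophils the level under 0.1% was below that at 2% to 20% in both libraries (7166 and 7691 in shCtrl, 5921 and 6404 in shSrsf10).

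Depth moved with the mt- share. In shCtrl tumour barcodes mt- UMIs were 4.46% of UMIs at 500 to 2000 UMIs per barcode, 2.37% at 2000 to 5000, 0.597% at 5000 to 20000 and 0.281% at 20000 or more, and in shSrsf10 they were 2.00%, 2.17%, 0.368% and 0.170%. Compared within these ranges, the log2 ratio of the 13 genes together was -1.16, -0.13 (110 shSrsf10 barcodes), -0.70 (-0.71 to -0.69) and -0.72 (-0.73 to -0.71). The tumour difference at a like depth was thus smaller than the pooled -1.02 in 3 of the 4 ranges, and shSrsf10 tumour barcodes were deeper. With only barcodes of 2000 to 20000 UMIs, the median of the tumour mt- genes was -0.73 and 10 of 12 were at least 1.5-fold lower.

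In T barcodes the log2 ratios by depth were -0.87, -1.86, -1.05 and, at 20000 UMIs or more, 0.14 (0.06 to 0.22), the 1 range with more mt- RNA in shSrsf10, on 19 shCtrl and 182 shSrsf10 barcodes. In macrophage barcodes they were -1.81, -2.64, -2.01 and -0.90, and in neutrophil barcodes -1.68 in the lowest range, which held 148 of 157 and 284 of 300 barcodes. The 21 nuclear genes had log2 ratios between -0.08 and 0.09 in the tumour ranges, -0.18 and 0.01 in the T ranges, and -0.06 and 0.48 in the macrophage ranges. In neutrophil barcodes of 500 to 2000 UMIs their log2 ratio was -0.48, against -0.24 over all neutrophil barcodes.

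**Figure D4:**
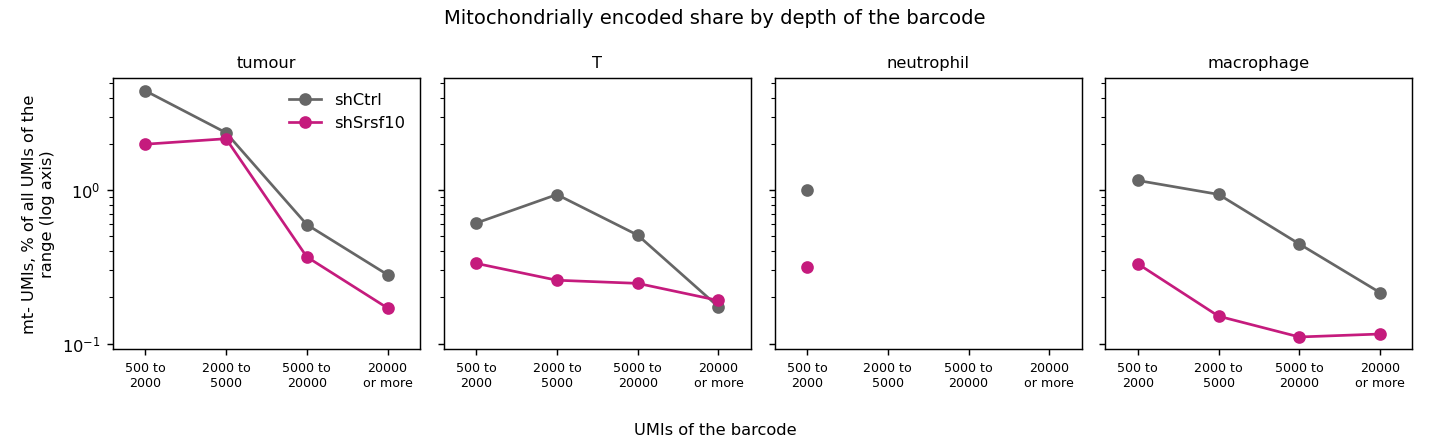
Mt- UMIs as % of all UMIs (vertical axis, logarithmic) of barcodes grouped by their UMI total (horizontal axis, 4 ranges), for both libraries in each class; ranges with fewer than 10 barcodes in a library are left out for it. The share is lower in deep than in shallow tumour barcodes in both libraries, and shSrsf10 lies below shCtrl in each range except T barcodes of 20000 UMIs or more, with a narrow gap at 2000 to 5000 UMIs in tumour (2.37% against 2.17%).

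The barcodes over the 20% limit also differed between the libraries: 375 in shCtrl, 3.78% of all, and 64 in shSrsf10, 0.847%. Of these 335 and 53 met no class rule, their median depth was 1185 and 838 UMIs, and they held 20.6% and 10.9% of all mt- UMIs of their library. Counting every barcode, mt- UMIs were 0.585% of the shCtrl and 0.244% of the shSrsf10 library. Kept barcodes in no class had 1.99% and 0.497%. A high mt- share is commonly taken as a sign of damaged cells, and its part in the differences above was not tested.

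In the small classes single barcodes weighed on the sums. The limit removed 1 shSrsf10 macrophage barcode with 739 mt- UMIs among 1021 (72.4%), which alone held 26.1% of the mt- UMIs of that class, and with no limit the macrophage median was -1.72 in place of -2.13. It removed 3 shCtrl neutrophil barcodes of 20.1% to 45.3%, which held 22.4%, 16.5% and 10.8% of the mt- UMIs of shCtrl neutrophil barcodes. It also removed 1 shSrsf10 neutrophil barcode of 24.7%, which held 18.5% of those of its class and library. With no limit the neutrophil median was -2.23 in place of -1.56. In T it removed 1 shCtrl barcode of 20.3%, just over the limit, and with no limit the T median was -1.19 in place of -1.07. The tumour median with no limit was -1.06. Kupffer cell markers, of the resident liver macrophage, summed to 471 CPM in shCtrl and 52.3 CPM in shSrsf10 macrophage barcodes. With barcodes holding them left out, all 9 measured mt- genes were at least 1.5-fold lower. Kupffer cells without a counted marker UMI would remain. The part of Kupffer cells in the macrophage difference was not tested.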

How the data were processed

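The authors deposited raw UMI counts, 1 matrix of genes by barcodes for each library. Cell Ranger 6.1.0 and mm10 come from the submitters' processing notes. Filters before deposit are not given in the sources used here. The lowest total is 500 UMIs, and barcodes have 17 letters. UMIs were summed per library and class over barcodes with at most 20% mt- UMIs and divided by the class total (CPM). CPM have exact Poisson intervals, ratios exact conditional binomial ones and shares exact Clopper-Pearson ones. Intervals cover counting error only, and the ratio script was tested on simulated data. Genes with at least 50 UMIs in a class over both libraries were counted as past 1.5-fold or not. Barcodes meeting several class rules stayed in each. Doublets were not removed; an alternative left out the highest Scrublet scores (scanpy 1.11.5), since the automatic threshold marked 0 and 201 barcodes. Named genes were all 34 members, at most 4 genes with the largest tumour ratio in each of 12 other lists (200 UMIs or more), Srsf10 and the class markers, with Cox4i2 added after its values were seen. Members and lists were chosen with earlier results of these data known. Coordinates are GENCODE vM21 on GRCm38. Python 3.11.15, numpy 2.4.6 and scipy 1.17.1 were used.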

Additional observations from a re-analysis of the deposited data

How the results depend on the processing

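The medians of the mt- genes stayed below 0 in all 4 classes under every alternative run. The depth alternative left out barcodes of 20000 UMIs or more, where the summed mt- genes of T barcodes were higher in shSrsf10 (log2 ratio 0.14). In neutrophils it measured 1 mt- gene, on 9 shCtrl and 16 shSrsf10 barcodes. Of the nuclear medians, those of tumour and macrophage barcodes stayed above 0, while those of T (-0.093 to 0.075) and neutrophil barcodes (-0.39 to 0.099) took both signs. No paired analysis was possible because each group has 1 library, and no replicate could be left out. The cause of each shift below was not tested. For the mt- genes the tumour median of -1.05 was -1.01 with at most 10% mt- UMIs, -1.02 without the highest Scrublet scores, -0.99 centred on the median gene, -0.98 as a mean over barcodes, -0.73 at 2000 to 20000 UMIs and -0.91 without barcodes holding Mki67 or Top2a. The T median of -1.07 was -0.92 with at most 10% mt- UMIs, -1.29 with barcodes of 1 class only, -0.81 without the highest Scrublet scores, -1.30 as a mean over barcodes, -1.36 at 2000 to 20000 UMIs and -0.82 in barcodes with Cd8a or Cd8b1, where 7 of 9 genes were at least 1.5-fold lower. The macrophage median of -2.13 was -1.72 with no limit, -1.88 with at most 10%, -2.60 with 1 class only and -2.56 at 2000 to 20000 UMIs, and the neutrophil median of -1.56 was -2.23 with no limit. For the nuclear genes the tumour median of 0.08 was 0.14 centred and 0.039 without Mki67 or Top2a, the T median of 0.003 was -0.093 without the highest Scrublet scores, and the macrophage median of 0.08 was 0.28 as a mean over barcodes. Log2 ratios of single genes changed sign as follows: Atp5j in tumour to 0.042 (centred), 0.016 (mean over barcodes), 0.073 (2000 to 20000 UMIs) and 0.021 (without Mki67 or Top2a); Atp5a1 to -0.0088 (2000 to 20000 UMIs) and Atp5b to -0.022 (without Mki67 or Top2a) in tumour; Uqcrh to 0.0068 (mean over barcodes), Cox4i1 to -0.041 (2000 to 20000 UMIs) and Atp5b to -0.024 (Cd8a or Cd8b1) in T; Cox6c to 0.50 and Atp5g1 to 0.18 in neutrophil barcodes of 2000 to 20000 UMIs; and Cox6c in macrophage barcodes to 0.022 without the highest Scrublet scores and 0.018 as a mean over barcodes. Depth limits mt-Nd6 in every class, mt-Atp8 outside tumour barcodes, mt-Nd3 and mt-Nd4l in macrophages, and mt-Nd3, mt-Nd4l, mt-Nd5 and 5 nuclear genes in neutrophils.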
